A study of Mus musculus with 9 samples.

Results

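Cultures that received TNF-α together with Wang Bi Tablet (WBT) were compared with untreated cultures, in order to see which genes stayed changed when both agents were present. The labels describe all 9 libraries as RNA of the mouse macrophage-like line RAW264.7 of strain BALB/c, in 3 groups of 3 libraries. Untreated cultures (Con) were given PBS, the TNF-α group was given recombinant human TNF-α at 20 ng/ml, and the TNF-α+WBT group that TNF-α together with 1.0 μg/ml of WBT, a tablet of mixed herbs used in rheumatoid arthritis, both for 24 h. The labels give the agents and the time, and the doses, the PBS and the source of TNF-α were read from the methods. In the labels the third treatment is called WBP, which is read here as TNF-α+WBT. There was no culture with WBT alone, so the effect of WBT without TNF-α could not be measured, and although the study calls the libraries biological replicates, no label says whether they came from separate cultures, so the p-values measure the spread between libraries, which may be technical. The values were FPKM, the number of fragments scaled to the length of the transcript and to the size of the library. The members described here are all genes whose FPKM averaged 1 or more over the 3 Con and the 3 TNF-α+WBT libraries, which was 12679 of 56289 genes, and 11114 of the tested ones were protein coding. The values closest to this limit were 1.002 FPKM for Gm14966, which was kept, and 0.9997 FPKM for Hist1h4k, which was not.

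In the mouse, TNF-α is a trimeric cytokine that binds the receptors encoded by Tnfrsf1a and Tnfrsf1b. The cultures here were given the human protein, and its binding to each of these mouse receptors was not measured. The receptor recruits adaptors and ubiquitin ligases, the IκB kinase complex marks IκB proteins for degradation, and NF-κB dimers enter the nucleus and bind κB sites in the promoters of chemokine, adhesion and antigen presentation genes. The same factors transcribe their own inhibitors, such as Nfkbia and Tnfaip3, which limit the response. Kinases of the same receptor also act on AP-1, the family of Jun, Fos and ATF proteins, and secreted interferon can add a further wave of genes in the same cells.

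From the steps of the low FPKM values, the depth was estimated as 20299000 to 26300000 fragments in Con, 19066000 to 22564000 with TNF-α and 16978000 to 19849000 with TNF-α+WBT. These estimates are approximate, since only 51.32% to 54.83% of the low values came within 0.1 of a whole fragment count (20% by chance). The search was also limited to a range set beforehand, because a multiple of a depth fits whole counts too. The absolute level therefore rests on that range. No library stood apart: the root mean square deviation from the group mean was 0.20 to 0.24 on the log2 scale in the 9 libraries. The macrophage label did not hold in the transcripts, as 7 of 16 macrophage markers, Ptprc, Spi1, Itgam and Adgre1 among them, were listed at 0 in all libraries and only Cd14 exceeded 1 FPKM in each of them. The markers of fibroblasts summed to 4841 to 5106 FPKM in Con and 5126 to 5250 FPKM with TNF-α+WBT, with 11 of 14 above 1 FPKM throughout and Lum at 0. Those of Schwann cells, which wrap peripheral axons, summed to 962 to 1018 FPKM in Con and 854 to 883 FPKM with TNF-α+WBT, with 11 of 16 above 1 FPKM and none at 0. The values below are therefore given for the cultures, without a cell type, and in such bulk samples fewer cells of a type and less RNA per cell cannot be told apart.

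Of the 12677 members that could be tested, 513 rose and 302 fell in TNF-α+WBT relative to Con at an adjusted p under 0.05 (limma with Benjamini-Hochberg adjustment over 25417 genes). These counts are 4.05% and 2.38% of the tested members, where 2.31% and 1.40% of all tested genes passed in the same directions. The changes were mostly small. Among the higher genes 92 had a fold change over 2, and 16 of these over 4, while 102 lay between 1.5 and 2 and 319 at or under 1.5. Among the lower genes the corresponding counts were 46, 4, 63 and 193. The median log2 fold change was 0.45 in the higher and -0.47 in the lower genes, and it was 0.00 over all members. The study's own thresholds, a fold change over 2 at an unadjusted p under 0.05, were passed by 165 members, 105 of them higher and 60 lower (2.29% of all tested genes passed). Both thresholds of size and adjusted p were met by 138 members (0.984% of all tested genes), and in each of these the 3 libraries of one group lay above the 3 of the other, as they did in 27.0% of the tested members. A two-sided exact permutation test of 1 gene has a smallest possible p of 0.1 with 3 libraries per group, so all tests below come from the model across genes.

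**Figure D1:**
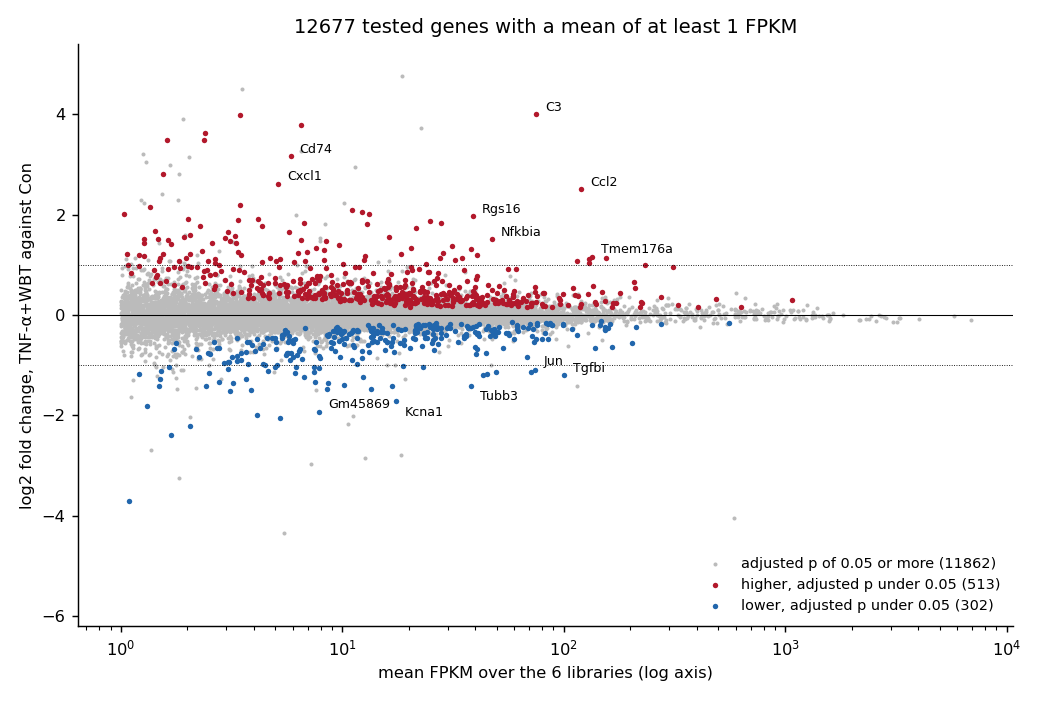
Mean FPKM over the 6 libraries (horizontal, log axis) against the log2 fold change of TNF-α+WBT against Con (vertical) for the 12677 tested members, with dotted lines at a fold change of 2. Red points are the 513 higher and blue points the 302 lower genes; C3, at a log2 fold change of 4.0, lies far above other genes of its level, and some unlabelled grey points with larger changes have libraries near 0 FPKM.

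Large fold changes did not always pass the test. A fold change over 4 was found for 26 members that did not pass the test, and 19 of them had a library under 0.1 FPKM and 18 had overlapping groups. Gm10260, for example, held 483 to 752 FPKM in Con and 792 and 753 FPKM in TNF-α+WBT replicates 1 and 2, while it was listed at 0 in replicate 3. Such a value can be a failed estimate. The 2 members that were not tested, Rbms3 and Gm27027, were each above 0 in fewer than 3 libraries, and their means came from single libraries with 11.9 and 7.67 FPKM.

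The genes with the smallest p among the higher ones with a fold change over 2 were C3, Ccl2, Vcam1, H2-Q4, Tmem176a, Cd74, Nfkbia, Cxcl1, Rgs16 and Steap4. C3 encodes the central component of complement (ENSMUSG00000024164, chromosome 17, 57203970 to 57228136). Its values were 8.68, 9.52 and 8.11 FPKM in Con, 164, 174 and 161 FPKM with TNF-α and 138, 153 and 135 FPKM with TNF-α+WBT. Both treated groups lay far above Con, and the TNF-α+WBT libraries lay under all TNF-α libraries. TNF-α+WBT was 16-fold higher than Con (log2 4.0, standard error 0.07, adjusted p = 6.46e-08, limma). Ccl2, the chemokine that attracts monocytes (ENSMUSG00000035385, chromosome 11, 82035571 to 82037453), stood at 38.1, 32.7 and 37.1 FPKM in Con, 265, 262 and 269 FPKM with TNF-α and 210.0, 198 and 204 FPKM with TNF-α+WBT. It was 5.68-fold higher than in Con (log2 2.50, standard error 0.06, adjusted p = 2.78e-07). Again no library of any group reached into another group.

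Vcam1 encodes an adhesion molecule for leukocyte integrins (ENSMUSG00000027962, chromosome 3, 116109949 to 116129688). Its values were 10.6, 10.8 and 10.7 FPKM in Con, 45.1, 50.3 and 45.9 FPKM with TNF-α and 39, 40.4 and 38.4 FPKM with TNF-α+WBT, a log2 fold change of 1.86 for TNF-α+WBT against Con. The invariant chain gene Cd74, which guides class II histocompatibility molecules, held 0.982, 1.06 and 1.26 FPKM in Con, 14.4, 15.7 and 15 FPKM with TNF-α and 10.3, 11.6 and 9.91 FPKM with TNF-α+WBT (log2 3.16 against Con). Cd74 was thus a gene near 1 FPKM in Con that rose 8.93-fold. Tmem176a, which encodes a membrane protein and shares exon sequence with Tmem176b, was the most abundant of the 10 in Con, at 81.5, 84.5 and 83.8 FPKM in Con and 181, 192 and 186 FPKM with TNF-α+WBT, with a log2 fold change of 1.16. Its neighbour Tmem176b had a log2 fold change of 1.0. Rgs16, a regulator of G protein signalling, rose 3.90-fold (log2 1.96), and Steap4, a metalloreductase of endosomes and the cell surface, rose 2.92-fold (log2 1.55).

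Among the lower genes with a fold change over 2, the smallest p belonged to Sema4f, Tgfbi, Tnc, Atf3, Jun, Kcna1, Tubb3, Plxnb3, Gm45869 and Stc2. The semaphorin gene Sema4f (ENSMUSG00000000627, chromosome 6, 82911885 to 82939769) stood at 19.6, 20.2 and 19.96 FPKM in Con, 5.83, 5.78 and 5.72 FPKM with TNF-α and 7.18, 7.2 and 6.86 FPKM with TNF-α+WBT. Against Con it was 2.79-fold lower (log2 -1.48, standard error 0.05, adjusted p = 1.66e-06), with TNF-α+WBT libraries between those of the other groups. Tgfbi encodes a matrix protein that TGF-β induces (ENSMUSG00000035493, chromosome 13, 56609523 to 56639562). It held 143, 139 and 136 FPKM in Con, 53.1, 57.0 and 54.3 FPKM with TNF-α and 58.9, 60.4 and 62.2 FPKM with TNF-α+WBT, a log2 fold change of -1.20. Tnc, which encodes the matrix glycoprotein tenascin C, fell from 68.1 ± 2.66 to 30.7 ± 0.714 FPKM (SD, n = 3 each; log2 -1.15), while the TNF-α group held 29.2 ± 0.148 FPKM.

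Kcna1 and Tubb3 among the 10 are known from excitable cells. Kcna1, a voltage-gated potassium channel gene (ENSMUSG00000047976, chromosome 6, 126640397 to 126646384), held 26.4, 26.2 and 27.8 FPKM in Con, 5.64, 5.19 and 6.0 FPKM with TNF-α and 8.38, 8.31 and 7.49 FPKM with TNF-α+WBT (log2 -1.72 against Con). Tubb3, the class III β-tubulin gene typical of neurons, held 54.7, 53.4 and 57.9 FPKM in Con and 19.3, 22.3 and 20.9 FPKM with TNF-α+WBT (log2 -1.41). Both stayed well under every Con library. The predicted gene Gm45869 (ENSMUSG00000110390, chromosome 6, 126549869 to 126556169) had the lowest log2 fold change of the 10, -1.93, from 12.5 ± 0.524 to 3.20 ± 0.307 FPKM (SD, n = 3 each). It shares exon sequence with Gm33320, so their values are uncertain. Exon sequence was also shared by Vcam1 with Gm43109, H2-Q4 with Gm11131, Rgs16 with Gm28513, Cxcl10 with Art3, Tnc with 8030451A03Rik, Jun with Junos, Cp with Hps3 and Psmb9 with Tap1, and their fragments cannot be told apart by strand. Stc2, which encodes a secreted glycoprotein, fell from 31.2 ± 1.26 to 15.1 ± 0.107 FPKM (SD, n = 3 each; log2 -1.04).

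**Figure D2:**
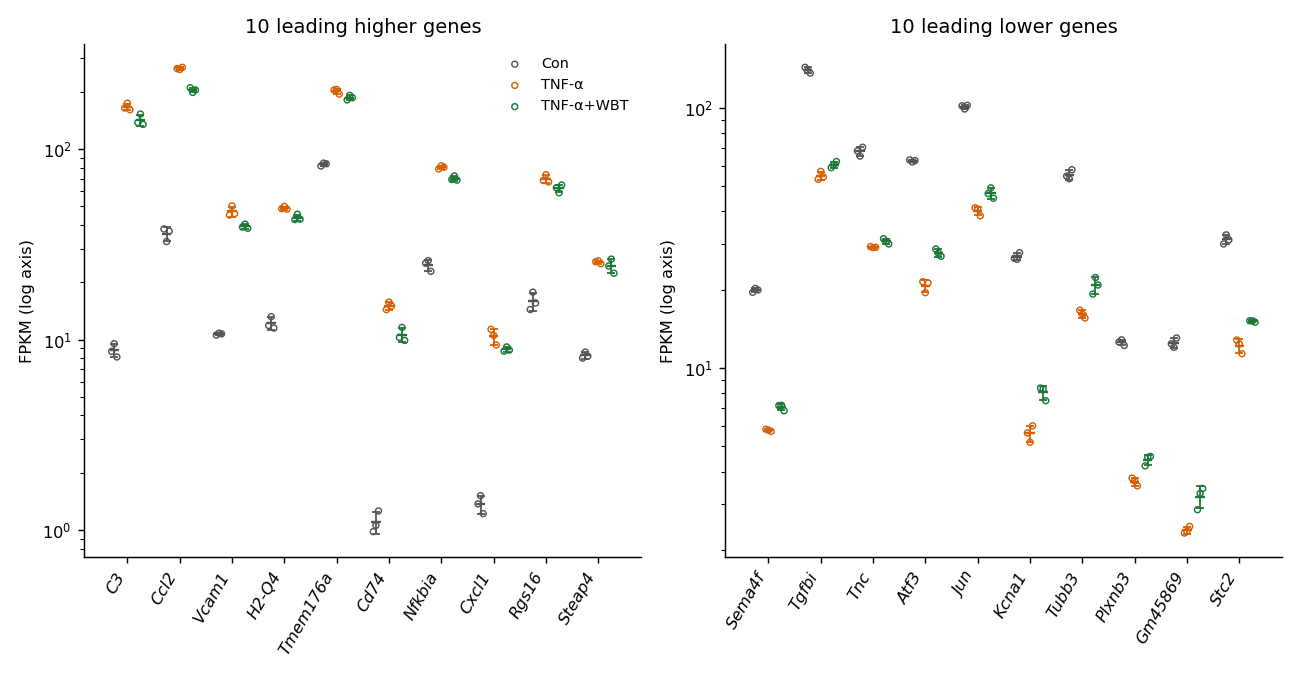
FPKM (vertical, log axis) of the 10 leading higher genes (left) and the 10 leading lower genes (right) in each library; circles are libraries, bars the group mean and SD (n = 3), in grey for Con, orange for TNF-α and green for TNF-α+WBT. The genes were chosen so that no TNF-α+WBT library reaches into the Con libraries. The TNF-α+WBT libraries lie between Con and all TNF-α libraries in 9 of the 10 higher genes, Steap4 excepted, and in all 10 lower genes. Among all tested members they lay under all TNF-α libraries in 6.37% and above them in 6.75%.

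Among the ligands, 9 of 14 cytokine and chemokine genes were higher and none was lower, with a median log2 fold change of 0.69 where the median of all members was 0.00. Among all tested members 4.05% were higher and 2.38% lower, which is the scale for this and the following lists. When 1 library was left out in turn, 6 to 8 of the 14 genes were higher. Ccl5, a chemokine for T cells and monocytes, stood at 0.503, 0.698 and 0 FPKM in Con and at 3.85, 5.02 and 4.39 FPKM with TNF-α+WBT, which is 3.63 on the log2 scale (standard error 0.66, adjusted p = 0.0202). It is a gene of few fragments in Con, and the adjusted p rose to 0.0737 without TNF-α+WBT replicate 2 (log2 3.53); it was also over 0.05 without each other TNF-α+WBT library. Cxcl10, which attracts T cells through Cxcr3, held 0.506, 0.366 and 0.133 FPKM in Con, 6.60, 7.52 and 5.99 FPKM with TNF-α and 4.02, 4.76 and 4.44 FPKM with TNF-α+WBT (log2 3.48, adjusted p = 4.15e-04). The neutrophil chemokine gene Cxcl1 held 1.37, 1.52 and 1.22 FPKM in Con, 11.3, 10.5 and 9.37 FPKM with TNF-α and 8.70, 9.16 and 8.82 FPKM with TNF-α+WBT. This was 6.13-fold more than in Con, and the lowest TNF-α library stayed above the highest TNF-α+WBT library. Ccl7 and Ccl9 had log2 fold changes of 1.24 and 0.96. The macrophage growth factor gene Csf1 rose from 21.7 ± 1.47 to 47.7 ± 0.944 FPKM (SD, n = 3 each), where the TNF-α group held 55.9 ± 4.0 FPKM.

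The mouse genes of the TNF-α receptors did not pass the test. Tnfrsf1a held 36, 36.7 and 36.1 FPKM in Con and 32.2, 37.7 and 31.2 FPKM with TNF-α+WBT (log2 -0.11, 95% interval -0.51 to 0.28), and Tnfrsf1b held 15.6, 17.4 and 16.8 and 16.1, 17.4 and 16.7 FPKM (log2 0.01, 95% interval -0.11 to 0.13). Of 29 genes of TNF receptor signalling, 4 were higher, none was lower, and the median log2 fold change was 0.06. The 4 were inhibitors or adaptors of the pathway, and 2 of them passed without Con replicate 3 and 2 without TNF-α+WBT replicate 2. Tnfaip3, which encodes the ubiquitin-editing inhibitor A20, held 3.79, 4.92 and 4.24 FPKM in Con and 14.9, 14.2 and 8.47 FPKM with TNF-α+WBT, which is 1.48 on the log2 scale (standard error 0.25, adjusted p = 0.0134). Without Con replicate 1 its adjusted p was 0.0559 at a log2 fold change of 1.39, and it was over 0.05 in 3 further leave-one-out fits, those without Con replicate 3 and TNF-α+WBT replicates 1 and 2. Tnip1, whose product works with A20, rose from 17.3 ± 0.318 to 38.1 ± 2.63 FPKM (SD, n = 3 each; log2 1.14). The adaptor genes Traf3 and Traf2 had log2 fold changes of 0.67 and 0.48, and Traf2 did not pass in 4 leave-one-out fits (without Con replicates 2 and 3 and TNF-α+WBT replicates 2 and 3), with an adjusted p of up to 0.0867 without TNF-α+WBT replicate 3 (log2 0.46). Among other receptors, Tnfrsf9, a costimulatory receptor of T cells, rose from 4.08 ± 0.939 to 18 ± 5.55 FPKM (log2 2.10), and Tlr2, a receptor for bacterial lipoproteins, from 3.35 ± 0.366 to 9.64 ± 0.870 FPKM (log2 1.5; SD, n = 3 each). Tnfrsf14 had a log2 fold change of 0.92 and an adjusted p of 0.106. Of 9 genes that the study discusses, these 3 members (Tnfaip3, Tnfrsf9 and Tnfrsf14) were measured here, of which 2 were higher, and 1 without any of Con replicates 1 and 3 and TNF-α+WBT replicates 1 and 2.

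In the NF-κB family with its IκB inhibitors, 8 of 10 genes were higher and none was lower, with a median log2 fold change of 0.83. The higher genes numbered 6 to 8 when 1 library was left out in turn. Nfkbia, which encodes IκBα (ENSMUSG00000021025, chromosome 12, 55489410 to 55492647), stood at 25.2, 26.0 and 22.8 FPKM in Con, 78.7, 81.7 and 80.4 FPKM with TNF-α and 69.3, 72.3 and 68.8 FPKM with TNF-α+WBT. It was 2.84-fold higher than in Con (log2 1.5, standard error 0.05, adjusted p = 1.77e-06), and its 3 groups did not overlap. Nfkbie, which encodes the inhibitor IκBε, and Relb, a subunit of the non-canonical pathway, had log2 fold changes of 2.05 and 2.01. There were, with both agents, 16.1, 18 and 25.6 FPKM of Nfkbie and 23, 20.7 and 19.9 FPKM of Relb, against 6.19, 4.73 and 3.43 and 5.51, 5.49 and 4.62 FPKM in Con. Bcl3 and Nfkb2 followed at 1.29 and 1.09; Nfkb2 shares exon sequence with Psd. Rela, the main activating subunit, did not pass (log2 0.23, adjusted p = 0.112, 95% interval 0.08 to 0.38), nor did Nfkbiz (log2 0.15).

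Promoter sequence was set beside these changes. RefSeq windows of 250 bases before to 50 bases after a gene start (GRCm38.p6) were found for 9115 of 12665 tested member symbols and searched on both strands for a κB-type motif that reads GGG, any pair of bases, then TTTCC. It was present in 26.2% of the windows of higher genes with a fold change over 2 (17 of 65 genes), in 13.8% of those between 1.5 and 2 (9 of 65) and in 2.46% of those at or under 1.5 (6 of 244). Among members that did not pass it was present in 1.72%, among lower genes in 2.31% and among all 27025 genes with a window in 1.89%. The motif was thus found more often with larger rises and at about the general share among lower genes, which is a description with no test; the motifs were chosen after values were seen. The stretches below come from before the start of higher genes described here, with the κB-type matches in capitals. They are printed because they hold a match, so the motif recurs in them by choice. Of 63 leading or list genes with a window, 14 held a κB-type match.
Nfkbia: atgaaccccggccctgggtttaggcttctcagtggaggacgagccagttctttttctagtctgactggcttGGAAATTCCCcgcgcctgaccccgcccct
Tnfaip3: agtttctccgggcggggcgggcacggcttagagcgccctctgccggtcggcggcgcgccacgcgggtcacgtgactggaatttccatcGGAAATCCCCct
Cxcl1: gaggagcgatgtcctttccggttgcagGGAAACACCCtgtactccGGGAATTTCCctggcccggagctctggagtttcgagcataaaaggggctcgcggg
Tnfrsf9: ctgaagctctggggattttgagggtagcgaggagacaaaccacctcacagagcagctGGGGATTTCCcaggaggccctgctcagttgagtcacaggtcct
H2-Q4: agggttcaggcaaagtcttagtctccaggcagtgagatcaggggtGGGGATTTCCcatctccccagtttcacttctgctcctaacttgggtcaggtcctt
Casp4: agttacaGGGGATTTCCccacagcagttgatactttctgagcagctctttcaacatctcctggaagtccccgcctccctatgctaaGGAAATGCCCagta
Traf3: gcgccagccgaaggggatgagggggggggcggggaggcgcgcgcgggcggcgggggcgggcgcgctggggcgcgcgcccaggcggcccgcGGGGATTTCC
Steap4: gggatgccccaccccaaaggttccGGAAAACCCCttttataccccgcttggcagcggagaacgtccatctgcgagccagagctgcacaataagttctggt
Tmem176a: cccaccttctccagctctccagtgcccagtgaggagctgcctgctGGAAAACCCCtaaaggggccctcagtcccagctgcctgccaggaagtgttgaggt

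These stretches are chr12:55492648-55492747 (minus strand) for Nfkbia, chr10:19015411-19015510 (minus strand) for Tnfaip3, chr5:90891129-90891228 (plus strand) for Cxcl1, chr4:150927899-150927998 (plus strand) for Tnfrsf9 and chr17:35379398-35379497 (plus strand) for H2-Q4. The others are chr9:5308749-5308848 (plus strand) for Casp4, chr12:111166270-111166369 (plus strand) for Traf3, chr5:7960222-7960321 (plus strand) for Steap4 and chr6:48841352-48841451 (plus strand) for Tmem176a. In Nfkbia the match lay 29 to 20 bases before the start, in Tnfaip3 12 to 3 bases and in Traf3 10 to 1 bases before it. Cxcl1 and Casp4 each held a pair of matches in the printed stretch. No window was found for Ccl2, Ccl5, Vcam1, Relb, Mmp9 and Cd74. C3, Nfkbie, Bcl3, Tnip1, Rgs16, H2-D1, H2-K1 and Tapbp, which rose, had a window without a κB-type match. Only this exact pattern was searched, and only within the window. A gene without a match can therefore still hold a κB site of another form or at another place. A match was also found before the starts of Dusp5 and Sdhb, which fell.

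An interferon-type motif that reads GAAA, any pair of bases, then GAAA was present in 7.69% of the higher genes with a fold change over 2 (5 of 65), in 9.23% of those between 1.5 and 2, in 6.9% of the lower genes with a fold change over 2 (2 of 29), in 1.85% of all lower genes and in 3.99% of all genes with a window. An AP-1-type motif, TGANTCA, was present in 16.9% of the higher (11 of 65) and 20.7% of the lower genes (6 of 29) with a fold change over 2, and in 8.97% of all genes. The κB-type and interferon-type matches overlapped each other in 3 of 32851 windows, and the AP-1-type match overlapped neither in any. The interferon-type match is shown for the interferon-induced genes Gbp7, Gbp3 and Cxcl10, which rose, and for Tgfbi, which fell.
Gbp7: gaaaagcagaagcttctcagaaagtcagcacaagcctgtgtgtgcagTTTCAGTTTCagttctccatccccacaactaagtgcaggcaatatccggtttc
Gbp3: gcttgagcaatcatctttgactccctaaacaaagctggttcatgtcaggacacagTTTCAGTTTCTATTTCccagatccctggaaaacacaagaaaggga
Cxcl10: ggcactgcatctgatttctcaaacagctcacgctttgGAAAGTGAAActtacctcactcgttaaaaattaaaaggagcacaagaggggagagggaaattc
Tgfbi: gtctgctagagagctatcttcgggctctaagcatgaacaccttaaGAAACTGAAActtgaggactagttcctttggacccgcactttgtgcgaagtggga

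They are chr3:142530236-142530335 (plus strand), chr3:142559944-142560043 (plus strand), chr5:92349040-92349139 (minus strand) and chr13:56609347-56609446 (plus strand), in the same order. In Gbp3 a pair of matches overlaps, which gives the longer run of capitals.

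**Figure D3:**
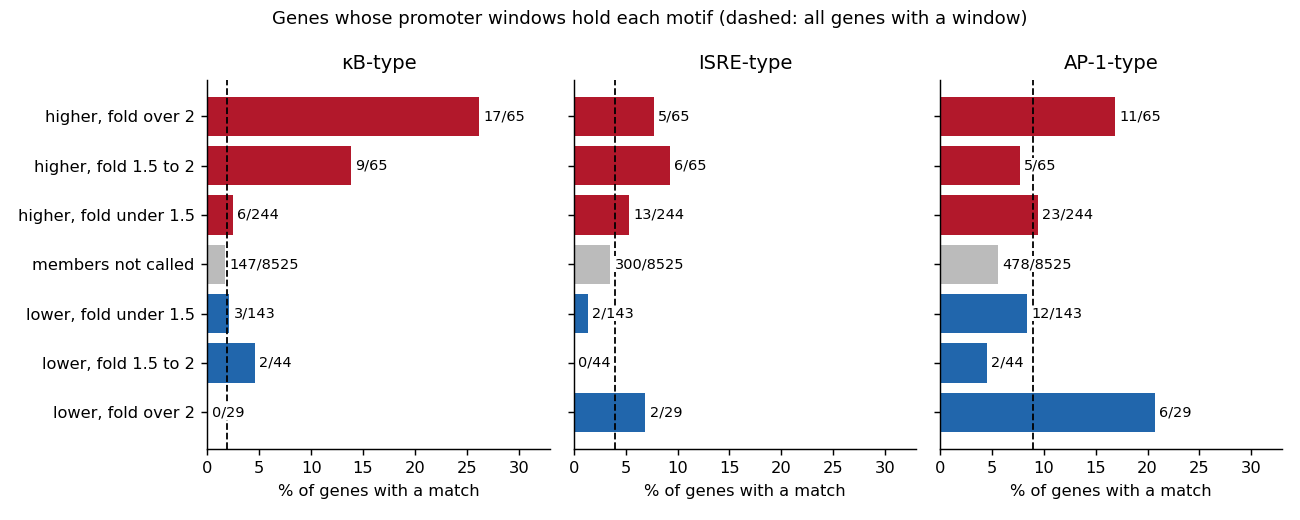
Share of genes (horizontal, % of genes with a promoter window) that hold a κB-type, an interferon-type (ISRE) or an AP-1-type motif, by direction and fold change of TNF-α+WBT against Con; labels give matches over genes, and the dashed line the share of all genes. The κB-type share is 26.2% in higher genes with a fold change over 2 and 0 of 29 in lower genes of that size.

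Genes of class I antigen presentation, by which cells show peptides to cytotoxic T cells, rose in 15 of 22 cases with none lower and a median log2 fold change of 0.60. When 1 library was left out in turn, 12 to 13 of them were higher. B2m, the light chain shared by all class I molecules, held 217, 210.5 and 209 FPKM in Con, 423, 447 and 430.1 FPKM with TNF-α and 403, 414 and 411 FPKM with TNF-α+WBT, a log2 fold change of 0.95. The heavy chain genes H2-Q4, H2-D1 and H2-K1 had log2 fold changes of 1.84, 1.13 and 1.12. They are close copies of each other, between which the authors' estimates could divide fragments, so single values are uncertain. Tapbp, which loads peptides, had 1.04, and Psmb8, a subunit of the immunoproteasome, had 1.04. The general folding helpers Calr, Canx and Pdia3 did not pass (log2 0.00, 0.04 and -0.01).

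Interferon response genes were higher in 13 of 34 cases and lower in none, with a median log2 fold change of 0.35. The higher genes numbered 10 to 12 when 1 library was left out in turn. Gbp7, a guanylate-binding protein gene, had the highest value of 1.68 (0.440, 0.883 and 0.578 FPKM in Con and 1.75, 2.23 and 2.67 FPKM with TNF-α+WBT). Zbp1, a sensor of nucleic acids in the Z form, held 1.29, 1.35 and 1.24 FPKM in Con and 2.62, 4.52 and 2.93 FPKM with TNF-α+WBT (log2 1.27, adjusted p = 0.0134), and the adjusted p was 0.0542 without Con replicate 3 (log2 1.24). Gbp3 and Parp14 had 1.26 and 1.18. Irf1, a transcription factor gene that NF-κB also induces, had 0.48 (adjusted p = 0.0426, and up to 0.119 without Con replicate 1 at log2 0.48, over 0.05 also without Con replicates 2 and 3 and TNF-α+WBT replicate 2), while Isg15, a ubiquitin-like modifier gene, did not pass (log2 0.83, adjusted p = 0.0902).

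Complement and acute phase genes were higher in 5 of 9 cases and lower in none, with a median log2 fold change of 0.59. Beside C3 these included the proteases C1s1 and C1ra of the classical pathway (log2 1.38 and 0.59) and Cp, which encodes ceruloplasmin, the copper-carrying ferroxidase. Cp held 75.6, 72.0 and 75.5 FPKM in Con, 114, 136 and 137 FPKM with TNF-α and 149, 164 and 155 FPKM with TNF-α+WBT (log2 1.07 against Con). All TNF-α+WBT libraries lay above all TNF-α libraries, as in 6.75% of the tested members, but the direct comparison did not pass (adjusted p = 0.559, limma).

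In the list of adhesion molecules and matrix proteases, 5 of 17 were higher and 3 lower, with a median of 0.12. Mmp9, a gelatinase, held 0.149, 0.167 and 0.231 FPKM in Con, 3.95, 4.22 and 4.25 FPKM with TNF-α and 2.89, 3.29 and 2.98 FPKM with TNF-α+WBT. This log2 fold change of 3.49 (adjusted p = 7.43e-06) rested on low Con values. Adamts1 and Adamts4, proteases of matrix proteoglycans, had 1.19 and 0.40, and the 3 lower genes Timp3, Plat and Mmp2 had -0.29, -0.28 and -0.16, of which Mmp2 passed in only 1 of the 6 fits that left out a library (adjusted p up to 0.0920 without TNF-α+WBT replicate 3, log2 -0.16).

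Cell death genes were higher in 7 of 24 cases and lower in none, with a median log2 fold change of 0.23. The higher genes numbered 5 to 7 and the lower genes 0 to 1 when 1 library was left out in turn. The death receptor gene Fas held 1.25, 0.998 and 1.25 FPKM in Con, 5.49, 5.96 and 6.62 FPKM with TNF-α and 6.61, 6.03 and 4.60 FPKM with TNF-α+WBT (log2 2.20). Casp4, an inflammatory caspase that senses lipopolysaccharide, held 5.63, 5.16 and 6.30 FPKM in Con, 21.4, 19.1 and 18.5 FPKM with TNF-α and 19.8, 20.2 and 20.5 FPKM with TNF-α+WBT (log2 1.81), so that the TNF-α and TNF-α+WBT libraries overlapped. Its substrate gene Gsdmd, which encodes the pore-forming gasdermin D, had 0.72, and Bbc3, a BH3-only gene of the BCL-2 family, had 0.60.

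AP-1 and immediate early genes moved in both directions, with 5 of 30 higher and 7 lower and a median log2 fold change of -0.05. These are 16.7% and 23.3% of the list, beside 4.05% and 2.38% of all tested members. Jun held 102, 99.0 and 102 FPKM in Con, 41.3, 40.9 and 38.5 FPKM with TNF-α and 46.9, 49.3 and 44.9 FPKM with TNF-α+WBT, and was 2.15-fold lower than in Con (log2 -1.10, standard error 0.04, adjusted p = 5.18e-06). Atf3, its stress-induced partner, held 63.1, 62.0 and 62.7 FPKM in Con, 21.5, 19.5 and 21.2 FPKM with TNF-α and 28.7, 27.6 and 26.9 FPKM with TNF-α+WBT (log2 -1.17). In both genes the 3 groups were apart, with TNF-α+WBT between the others. Fos and Egr1 had -0.69 and -0.77, Fos with an adjusted p over 0.05 without each Con replicate and without TNF-α+WBT replicates 1 and 3, up to 0.124 without Con replicate 2 (log2 -0.61). Egr3 (-1.04) and the phosphatase gene Dusp5 (-0.95) were lower as well. The adjusted p of Egr3 was up to 0.0568 without Con replicate 3 (log2 -0.90) and over 0.05 also without TNF-α+WBT replicates 1 and 3, and that of Dusp5 was up to 0.0776 without Con replicate 2 (log2 -0.88) and over 0.05 also without Con replicate 1 and TNF-α+WBT replicates 1 and 2. The higher members included Junb (0.44), a relative of Jun that shares exon sequence with Prdx2, and Ier3 (0.85), a survival gene that NF-κB induces. The counts fell with any library left out, to at most 4 higher and 5 lower genes. The higher genes numbered 3, 2, 3, 2 and 2 without Con replicates 1 and 3 and TNF-α+WBT replicates 1, 2 and 3. The lower genes numbered 4 without each of Con replicates 1 and 3 and TNF-α+WBT replicates 1 and 3.

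Among semaphorins, plexins and other guidance genes, 5 of 38 were higher and 5 lower, with a median log2 fold change of -0.16. Each count is 13.2% of the list, beside 4.05% higher and 2.38% lower among all tested members. Beside Sema4f, the lower genes included Plxnb3, a semaphorin receptor gene that held 12.6, 12.8 and 12.2 FPKM in Con, 3.78, 3.69 and 3.53 FPKM with TNF-α and 4.21, 4.54 and 4.58 FPKM with TNF-α+WBT (log2 -1.48), and Sema3e (log2 -0.70), a ligand of the receptor that Plxnd1 encodes. Plxnd1 itself rose from 15.3 ± 0.881 to 29.0 ± 0.965 FPKM (SD, n = 3 each; log2 0.92). A ligand and its receptor thus moved in opposite directions.

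The matrix list had 7 of 26 genes higher and 4 lower (26.9% and 15.4%, beside 4.05% and 2.38% of all tested members), with a median of 0.11. Collagen VI genes Col6a1 and Col6a2 rose by 0.53 and 0.40 on the log2 scale, and Col8a1 by 0.46, while the matricellular genes Tnc and Postn were lower (-1.15 and -0.55). With libraries left out, the higher genes numbered 4 without each of Con replicates 1 and 3 and TNF-α+WBT replicates 1 and 2, and the lower genes 2 without each of Con replicate 3 and TNF-α+WBT replicates 1 and 2. Over all such fits there were 4 to 10 higher and 2 to 3 lower genes. The main fibrillar genes Col1a1 and Col3a1 did not pass (0.19 and -0.04). In TGF-β and BMP signalling 3 of 24 genes were higher and 3 lower (12.5% each), with a median of -0.01. The higher genes numbered 0 without Con replicate 1, 0 without Con replicate 3 and 1 without TNF-α+WBT replicate 1. They numbered at most 2 with any library left out. Tgfbi and Id3, a target of BMP signals, were lower (-1.20 and -0.58), and the BMP ligand gene Bmp4 and the BMP antagonist gene Nog were higher (0.39 and 0.99). Nog, at 1.3 ± 0.0676 FPKM in Con, had an adjusted p of 0.0216, which rose to 0.0802 without Con replicate 3 (log2 0.94) and was also over 0.05 without Con replicates 1 and 2 and without TNF-α+WBT replicate 1. Bmp4 had one of 0.0173, which was 0.0717 without Con replicate 3 (log2 0.36) and over 0.05 without Con replicate 1.

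Markers of Schwann cells and fibroblasts also changed. Of the 12 Schwann cell markers among the members 4 were lower and 1 was higher, and of 11 fibroblast markers 2 were lower. Among all tested members 2.38% were lower and 4.05% higher. Ngfr, the low-affinity neurotrophin receptor gene, held 169, 165 and 174 FPKM in Con, 97.6, 96.7 and 96.7 FPKM with TNF-α and 107, 107 and 109.8 FPKM with TNF-α+WBT (log2 -0.65). S100b, a calcium-binding protein gene of glia, fell from 6.70 ± 0.149 to 3.24 ± 0.224 FPKM (SD, n = 3 each; log2 -1.03), and the glial cadherin gene Cdh19 had -0.54. Pou3f1, a transcription factor gene of Schwann cells before myelination, rose from 4.88 ± 0.166 to 9.47 ± 0.367 FPKM (SD, n = 3 each; log2 0.94), and Sox10, which defines the lineage, did not pass (-0.13, 95% interval -0.39 to 0.13). The summed Schwann markers, given above, were lower in all 3 TNF-α+WBT libraries than in all Con libraries, and their part in the values of Kcna1, Tubb3 and the guidance genes was not tested.

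Few growth and housekeeping genes passed. At the shares of all tested members, 4.05% higher and 2.38% lower, lists of this length would also hold few. The counts are therefore not read as a result about these genes. None of 30 mitosis genes passed in limma, at log2 fold changes from -0.47 to 0.20 with a median of 0.00, and 1 had an unadjusted p under 0.05, where 2732 of all tested members had one. Of 32 DNA replication genes Cdt1, a licensing factor gene, was the only one that passed (log2 -0.46). Top2a and Cdk1, the most abundant mitosis genes, had 0.07 and -0.14. None of 14 genes used by every cell passed in limma (-0.10 to 0.34, 2 with an unadjusted p under 0.05), with Eef1a1 at -0.02 and Rplp0 at -0.03.

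Metabolic and stress lists had median log2 fold changes of -0.01 to 0.19. Among all tested members, 4.05% were higher and 2.38% lower, and counts here that are near these shares are not read as results. In cholesterol and fatty acid synthesis 5 of 30 genes were higher and none lower (median 0.11), with Mvk, Lss, Mvd and Hmgcs1 at 0.41, 0.39, 0.30 and 0.26. The count fell to at most 4 with any library left out. It was 2 without Con replicate 2, 3 without Con replicate 3, 1 without TNF-α+WBT replicate 1 and 0 without TNF-α+WBT replicate 3. Of the 6 fits that left out a library, Hmgcs1 and Mvd did not pass in 5, Mvk in 3 and Lss in 2, with adjusted p-values of up to 0.0980, 0.0931, 0.0613 and 0.0678 at log2 fold changes of 0.24, 0.28, 0.38 and 0.35. Lss held 24, 28.0 and 27.6 FPKM in Con, 28.8, 25.8 and 26.6 FPKM with TNF-α and 34.1, 33.7 and 36.6 FPKM with TNF-α+WBT, and its TNF-α libraries overlapped with Con. In the integrated stress response 3 of 22 were higher (Chac1, Ddit3 and Trib3 at 0.54, 0.45 and 0.37), Chac1 with an adjusted p over 0.05 without Con replicates 1 and 3 and each TNF-α+WBT replicate, up to 0.106 without Con replicate 3 (log2 0.49). NRF2 and antioxidant genes were higher in 3 of 24 cases, with Sod3 at 0.58 and Gpx4 at 0.36. In glycolysis 1 of 21 genes was higher, Hk1 at 0.28, and 1 lower, Aldoc, which fell from 8.46 ± 0.723 to 3.74 ± 0.488 FPKM (SD, n = 3 each; log2 -1.16). The median of this list was 0.19, and 12 of the 21 had an unadjusted p under 0.05 (limma, either direction). Of the 12677 tested members 2732 had one. In the respiratory chain 2 of 28 were lower, Sdhb and Uqcrc1, at -0.21 and -0.16, and this count was 0 without each of Con replicates 1 and 3 and each TNF-α+WBT replicate. Targets of the aryl hydrocarbon and glucocorticoid receptors, which plant compounds can act on, did not pass in limma in any of 11 cases. At the shares of all tested members a list of this length would also hold few. The count is therefore not read as a result about these receptors. Log2 fold changes ran from -0.23 to 0.35, 3 targets had an unadjusted p under 0.05 (limma), and 1 passed without TNF-α+WBT replicate 2. Mt1 and Sgk1, the most abundant, had 0.07 (95% interval -0.09 to 0.23) and 0.23 (95% interval 0.03 to 0.43).

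**Figure D4:**
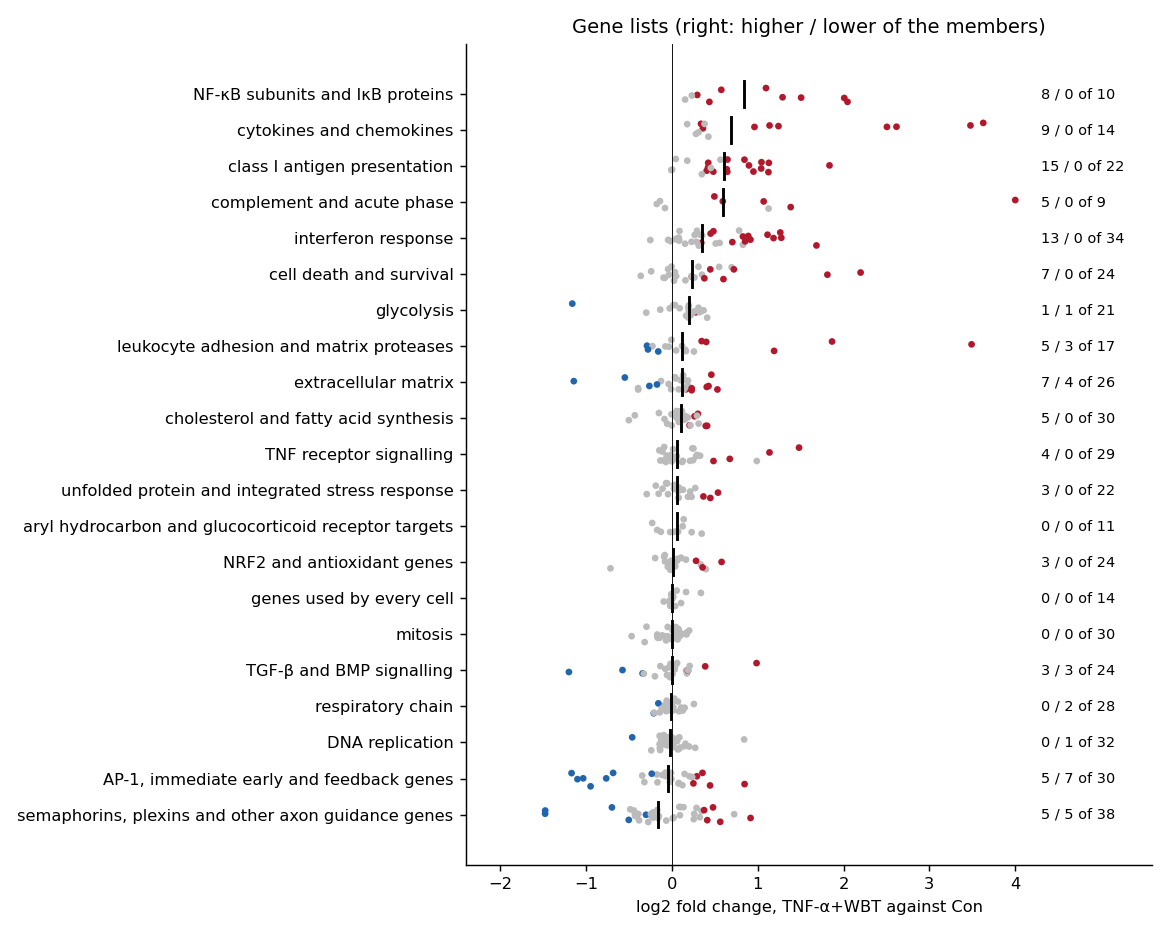
Log2 fold change of TNF-α+WBT against Con (horizontal) of the members of each gene list, ordered by median (black bar); red points were higher and blue points lower at an adjusted p under 0.05, and grey points did not pass. The counts at the right are higher / lower of the members of each list, such as 8 / 0 of 10 for the NF-κB subunits and IκB proteins and 5 / 5 of 38 for the guidance genes. Among all tested members 4.05% were higher and 2.38% lower.

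Of the study's 33 hub genes, which it chose from comparisons of these same libraries, 17 were members, and 14 of them were higher and 2, Jun and Plxnb3, lower than in Con. This list is not independent evidence of a direction. Beside those described above, Trf, the iron carrier transferrin, had 1.21 and Rhbdf2, which guides the protease that releases TNF-α, had 1.01. Abl1 had 0.18, at 17.3, 15.6 and 29.6 FPKM with TNF-α+WBT and 17.2, 17.7 and 17.8 FPKM in Con, so that TNF-α+WBT replicate 3 lay apart from the other 2.

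To see how TNF-α+WBT stood against TNF-α alone, the same members were set beside the TNF-α libraries. Of them, 1058 differed between TNF-α and Con at an adjusted p under 0.05 (4.86% of all tested genes passed), 639 higher and 419 lower. This comparison uses the same Con libraries, so it is given only as values. The log2 fold changes under TNF-α alone and under both agents were 4.23 and 4.0 for C3. They were, in the same order, for Ccl2 2.88 and 2.50, Nfkbia 1.70 and 1.5, Jun -1.33 and -1.10, and Kcna1 -2.24 and -1.72, each against Con. In 9 of the 10 leading higher genes all TNF-α+WBT libraries lay under all TNF-α libraries, as in 6.37% of the tested members. In all 10 leading lower genes they lay above them, as in 6.75% of the tested members. The leading genes were chosen for a small p in a fit whose spread came from all 9 libraries, those of TNF-α included. Their counts are therefore not comparable with the shares of all members and do not describe members in general. The root mean square distance between libraries over members was 0.343 to 0.420 on the log2 scale for the 9 pairs of a TNF-α and a TNF-α+WBT library and 0.425 to 0.473 for the 9 pairs of a Con and a TNF-α+WBT library. Replicates of 1 group lay 0.345 to 0.411 apart.

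When TNF-α+WBT was compared directly with TNF-α, 1 member passed at an adjusted p under 0.05 (limma; 0.00393% of all tested genes), and 878 had an unadjusted p under 0.05. The gene was March8, which encodes a membrane-bound ubiquitin ligase. In the comparison with Con it was also higher, with 15.7, 13.3 and 12.9 FPKM in Con and 26.9, 25.6 and 28.9 FPKM with TNF-α+WBT (log2 0.95, adjusted p = 5.64e-04), whereas the TNF-α libraries held 11.8, 12.6 and 10.8 FPKM. Against TNF-α the log2 fold change of March8 was 1.20 (adjusted p = 0.0131), and all libraries with both agents lay above those of both other groups. The adjusted p against TNF-α was 0.137 without TNF-α+WBT replicate 1, 0.0663 without TNF-α replicate 1 and 0.198 with the replicate number as a block. The next genes by p showed several patterns but did not pass. Tfrc, the transferrin receptor gene, held 37.1, 37.1 and 35.4 FPKM in Con, 42.3, 36.7 and 43.1 FPKM with TNF-α and 55.8, 53.5 and 55.6 FPKM with TNF-α+WBT, and it passed against Con (log2 0.59) and not against TNF-α (log2 0.44, adjusted p = 0.162). Meis1, a homeobox gene, was lower than in Con (log2 -0.46, adjusted p = 0.0384) at 2.86, 2.95 and 2.57 FPKM against 3.82, 3.60 and 4.25 FPKM, while the TNF-α libraries held 4.71, 4.25 and 4.65 FPKM. Its adjusted p against Con was over 0.05 with any of the 6 libraries left out, up to 0.131 without Con replicate 3 (log2 -0.40).

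Afg3l1, a gene for a mitochondrial protease subunit, held 14.5, 15.5 and 14.4 FPKM in Con, 19.7, 19.8 and 19.9 FPKM with TNF-α and 14.3, 15.1 and 13.4 FPKM with TNF-α+WBT. It did not pass against Con (log2 -0.05, 95% interval -0.17 to 0.07), and the difference from TNF-α had an adjusted p of 0.0801. Srf, a transcription factor gene of the cytoskeleton, had a log2 fold change of -0.14 against Con and -0.27 against TNF-α. Ripk2, a kinase gene of the NOD pathway, had 0.80 and -0.34, and Hes1, a Notch target gene, had -0.50 and 0.26; TNF-α alone against Con gave 1.15 and -0.77.

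**Figure D5:**
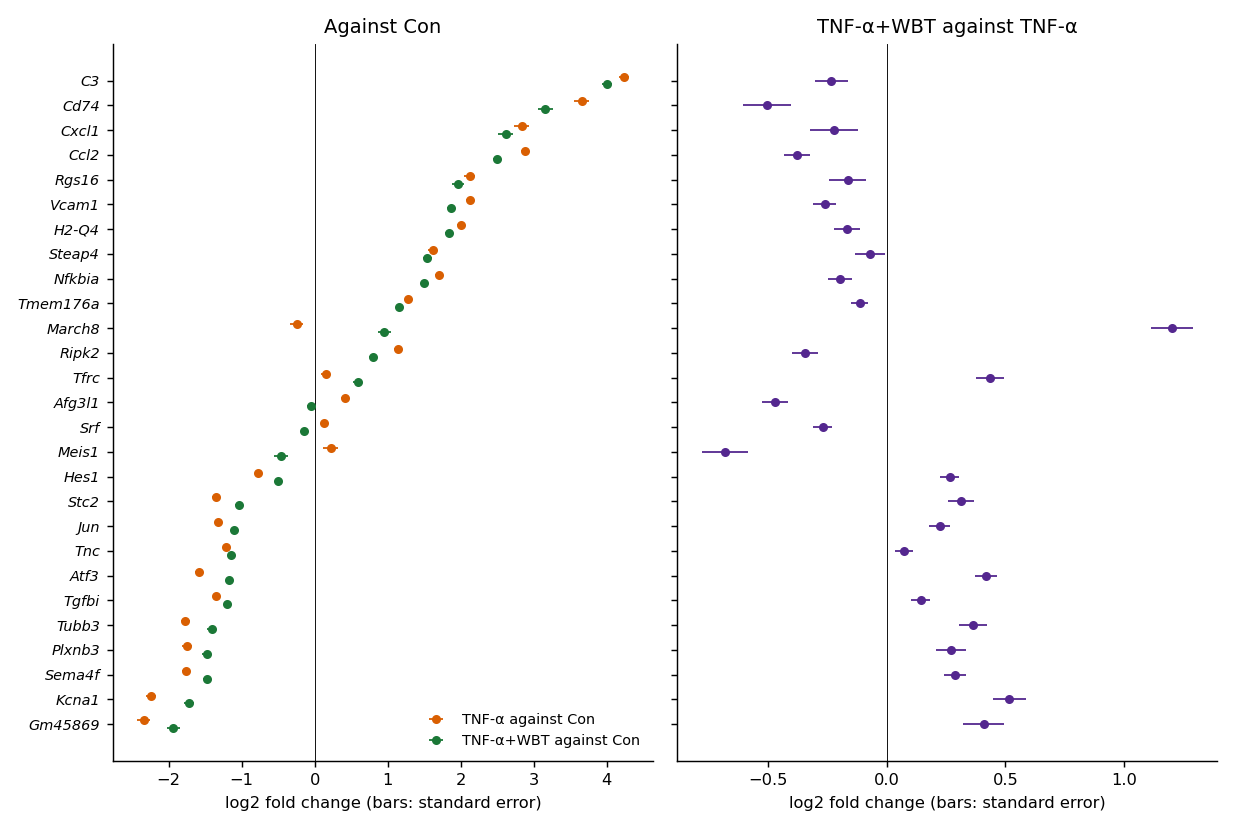
Log2 fold change with its standard error (horizontal) of the 20 leading genes and 7 further genes with the smallest p between TNF-α+WBT and TNF-α; left, TNF-α (orange) and TNF-α+WBT (green) against Con, which share the Con libraries; right, TNF-α+WBT against TNF-α. March8 is at 0.95 with TNF-α+WBT and -0.25 with TNF-α against Con; at the right it is at 1.20.

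In the table of transcripts, which was estimated separately for each annotated transcript, 27495 transcripts that averaged 1 FPKM or more were tested, and 174 were higher and 83 lower with TNF-α+WBT than in Con (0.455% of all 80149 tested transcripts passed). Of these 257 transcripts, 235 belonged to genes that also passed at the gene level. The remaining 22 did not, and in 4 genes transcripts passed in opposite directions. Vwa5a, for example, had a transcript that rose from 8.98, 11 and 11.3 to 26.0, 29.2 and 28.2 FPKM (ENSMUST00000118144, log2 1.41) and another that fell from 15.4, 13.6 and 14 to 7.29, 6.93 and 6.77 FPKM (ENSMUST00000001544, log2 -1.02), in the order of the libraries. Utp18, a gene of ribosome assembly, had a transcript that rose by 1.52 on the log2 scale (ENSMUST00000066888) and another that fell from 6.68, 7.34 and 8.35 FPKM to at most 0.0428 FPKM (ENSMUST00000130797), while the gene held 12.1 FPKM on average in Con and 12.2 FPKM with TNF-α+WBT. Transcripts of a gene share fragments that the authors' estimates divide among them, so these opposite values are not independent of each other.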

How the data were processed

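Paired-end poly(A) libraries were sequenced from 9 samples in 3 groups. The authors deposited FPKM values per gene and per transcript, which a figure of the study traces to HISAT2 and StringTie; versions and the genome build are not given in the sources used here. Gene positions were taken from GENCODE M21 (GRCm38), which held 98.1% of the gene identifiers. The library protocol in the labels has no step that marks strand, so genes that share exon sequence are named as uncertain. FPKM is relative to the library, and depth was estimated from single-transcript genes longer than 1000 bases.

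Members had a mean of at least 1 FPKM over the 6 libraries compared. Genes above 0 in at least 3 of 9 libraries (25417) were tested on log2(FPKM + 0.1), a scale that understates changes of low genes, with limma 3.58.1 (R 4.3.3; lmFit and eBayes with a trend), 1 mean per group over all 9 libraries and Benjamini-Hochberg adjustment; intervals are 95% intervals of the model. Python 3.11.15, pandas 2.3.3 and matplotlib 3.10.9 were used otherwise. The members, gene lists and tests were chosen with earlier results of these data known. The genes named are the 10 members per direction with the smallest p among those with an adjusted p under 0.05, a fold change over 2 and groups that did not overlap; in each list up to 4 called genes with the largest change, or the 2 most abundant where none was called; the study's hub and discussed genes; and 5 per direction with the smallest p against TNF-α. Other genes were named after their values were seen. The model was also run on simulated counts that gave every gene the same length and the same setting of spread, without failed estimates. Its behaviour with failed estimates was not tested. Same-numbered libraries did not deviate together (correlations of -0.04 to 0.11 in 9 pairs), so the numbers were not used as pairs. The alternatives were the pseudocount, the filter, the trend, the libraries in the model, the scaling, the transcript sum, the replicate block, the member rule and each library left out.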

Additional observations from a re-analysis of the deposited data

How the results depend on the processing

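Of 815 members that passed against Con, 381 passed in every one of 16 alternative fits, 241 higher and 140 lower, and 117 of them had a fold change over 2. Of 109 named genes that passed, 84 did so in all of these fits, and no named gene that passed in any fit changed direction. Without the trend, 305 members were higher and 175 lower than in Con, 661 differed between TNF-α and Con, and 111 transcripts passed. At the thresholds of the study, 102 members passed with a pseudocount of 1, and 79 with a member rule of at least 5 FPKM. In TNF-α+WBT against TNF-α, 3 members passed with a pseudocount of 0.01 and 2 with only the libraries of the 2 groups compared. Of transcripts, 396 passed when only those with a mean of at least 1 FPKM were tested and 149 with only the libraries of the 2 groups. With the replicate number as a block, 402 members were higher and 215 lower, 0 members passed against TNF-α, and 120 transcripts passed; by the correlations of -0.04 to 0.11, the libraries share only a number. With each library left out in turn, 326 to 423 members were higher and 182 to 218 lower, 172 to 185 passed the thresholds of the study, 0 to 8 passed against TNF-α (0 without TNF-α+WBT replicate 1, 8 without TNF-α+WBT replicate 2, 3 without TNF-α+WBT replicate 3, and 2 without each of TNF-α replicates 2 and 3), 712 to 841 differed between TNF-α and Con and 183 to 192 transcripts passed; the count of 326 came without Con replicate 3, and that of 182 as well. Fewer libraries leave fewer degrees of freedom; the cause of the other differences was not tested. The remaining alternatives stayed within 1.5 times the reported counts, and quantile normalization gave 470 higher and 358 lower. The median standard error was 0.19 on the log2 scale for members of 1 to 3 FPKM and 0.06 for those of at least 10 FPKM; the part of depth in this was not tested.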

Other observations

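Some genes known from neurons or as growth factors were in no list and were chosen after their values were seen, so they say nothing about such genes in general. Cntf, a survival factor of motor neurons that shares exon sequence with Zfp91, and Btc, a ligand of the EGF receptor, had log2 fold changes of -1.52 and -2.06 (adjusted p = 0.00379 and 0.00189, limma). The neurofilament genes Nefm and Nefl, which share exon sequence, had -1.12 and -1.08, and Uchl1, a ubiquitin hydrolase gene of neurons, had -1.36. Nrg1, the neuregulin ligand of ErbB receptors, was higher, at 2.51 ± 0.223 FPKM against 1.14 ± 0.139 FPKM (SD, n = 3 each; log2 1.08). Xirp1, an actin-binding gene of muscle, had the lowest log2 fold change of the members that passed, -3.71, with 2.03, 2.24 and 2.07 FPKM in Con, 0.0174, 0.0410 and 0.0459 FPKM with TNF-α and 0.0401, 0.109 and 0.0647 FPKM with TNF-α+WBT.

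In the transcript table, Cwf19l1, a splicing factor gene, had a transcript at 3.51, 3.62 and 3.42 FPKM in Con and 3.64, 3.22 and 3.66 FPKM with TNF-α that stood at 0.251, 0.264 and 0.0161 FPKM with TNF-α+WBT (ENSMUST00000026218, log2 -3.88 against Con, adjusted p = 0.00822). A second transcript of the gene stood at 0.243, 0.221 and 0.308, 0.288, 0.346 and 0.255 and 3.06, 3.03 and 3.37 FPKM in the same order of groups (ENSMUST00000237067, log2 3.19). The gene itself held 4.72, 4.81 and 5.07 FPKM on average. Slc35c2 had a transcript at 3.29, 3.87 and 4.81 FPKM in Con and 4.19, 2.43 and 3.84 FPKM with TNF-α that was listed at 0 in every library with both agents, and Gga1 had one that was listed at 0 in all Con and TNF-α libraries and held 5.14, 3.83 and 1.73 FPKM with TNF-α+WBT. Neither gene passed at the gene level, and a listed 0 can be a failed estimate.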
